A study of Mus musculus with 12 samples.

Results

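Mouse bone marrow-derived macrophages that had engulfed control B16-F10 corpses, 4 libraries, were compared with macrophages cultured alone, also 4 libraries, to describe what an ordinary load of dead tumour cells does to the macrophage transcriptome. B16-F10 is a pigmented melanoma line of C57BL/6 origin. All genes of the deposited count tables were considered, 55604 in each, and the 16406 with enough reads were tested. These 8 libraries are part of a series of 12, in which the other 4 are macrophages with corpses of B16-F10 cells that overexpress STC1 (labelled STC1OE). In all groups C57BL/6 marrow cells were differentiated until day 7 in M-CSF (20 ng/ml), which drives this lineage. The treated cultures received corpses at 5 per macrophage, and after 20 h corpses that had not bound were washed away. The labels do not say how the tumour cells were killed. The defining macrophage markers were present: all 14 listed were tested, and the receptor genes Adgre1 and Csf1r (the M-CSF receptor) stood at 1223 ± 17.4 and 1942 ± 28.3 CPM in macrophages alone and at 1049 ± 5.21 and 1618 ± 32.8 CPM with control corpses (mean ± SD, n = 4). In the test given below, 8 of the 14 markers were lower with control corpses and 5 were higher, with a median log2 fold change of −0.18. CPM are a gene's counts relative to all counts assigned in its library, after scaling between libraries.

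Clearance of dead cells by phagocytes, efferocytosis, runs from recognition of the corpse through bridging molecules and receptors to engulfment by actin and digestion in the lysosome. The eater then has to store, export or burn the lipid, protein and nucleic acid of a second cell, and lipid-sensing nuclear receptors and the sterol-sensing factor SREBP2 are the textbook regulators of that task. Reads from the corpse itself are counted together with those of the macrophage, since both are mouse.

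Libraries held 28488441 to 39981074 assigned counts, so a count of 0 in the shallowest allowed up to 0.105 CPM (counting error only). The common biological coefficient of variation was 4.53%. The share of reads outside annotated genes was 14.69% and 13.96% in libraries 1 and 2 of macrophages alone and lower in the other 6; its part in the results was not tested. In 49 genes of at least 3 CPM, 1 library of a group lay at least 2-fold from the nearest of its own group, and 1 of these 49, Pld4, was called. The series' design text states independent experiments per condition, and the tests treat the libraries so.

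With control corpses 3226 genes were higher, which is 19.7% of those tested, and 3356 were lower, which is 20.5% (edgeR quasi-likelihood test, Benjamini-Hochberg adjusted p below 0.05). Together they are 40.1% of all tested genes. The response was wide but mostly shallow: the median called gene differed 1.21-fold, and the median log2 fold change of all tested genes was −0.001. Asking in addition for a 1.5-fold difference left 429 genes higher (2.61%) and 689 lower (4.2%). At 4-fold or more stood 13 genes higher and 19 lower. The share of genes called grew with level, from 10.8% below 1 CPM to 72.8% between 100 and 1000 CPM, while the median size of a called difference shrank from 1.86-fold to 1.15-fold. Ranges of the 4 libraries did not overlap between groups for 6109 of the 16406 tested genes, among them 5611 of the 6582 called. Of 466 long intergenic RNA genes 7.3% were higher and 17.6% lower. The 2 shares were 5.54% and 6.99% of 758 antisense genes, 6.66% and 7.05% of 1021 processed pseudogenes and 24.3% and 24.4% of 12188 protein-coding genes. Counts for the gene lists below are set beside the protein-coding shares, which are not matched to a list by level. Between 10 and 100 CPM 1797 of 6235 tested genes were higher and 1671 lower, or 55.6% called. A list of well expressed genes can therefore exceed the protein-coding shares without standing apart from genes of its level.

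**Figure D1:**
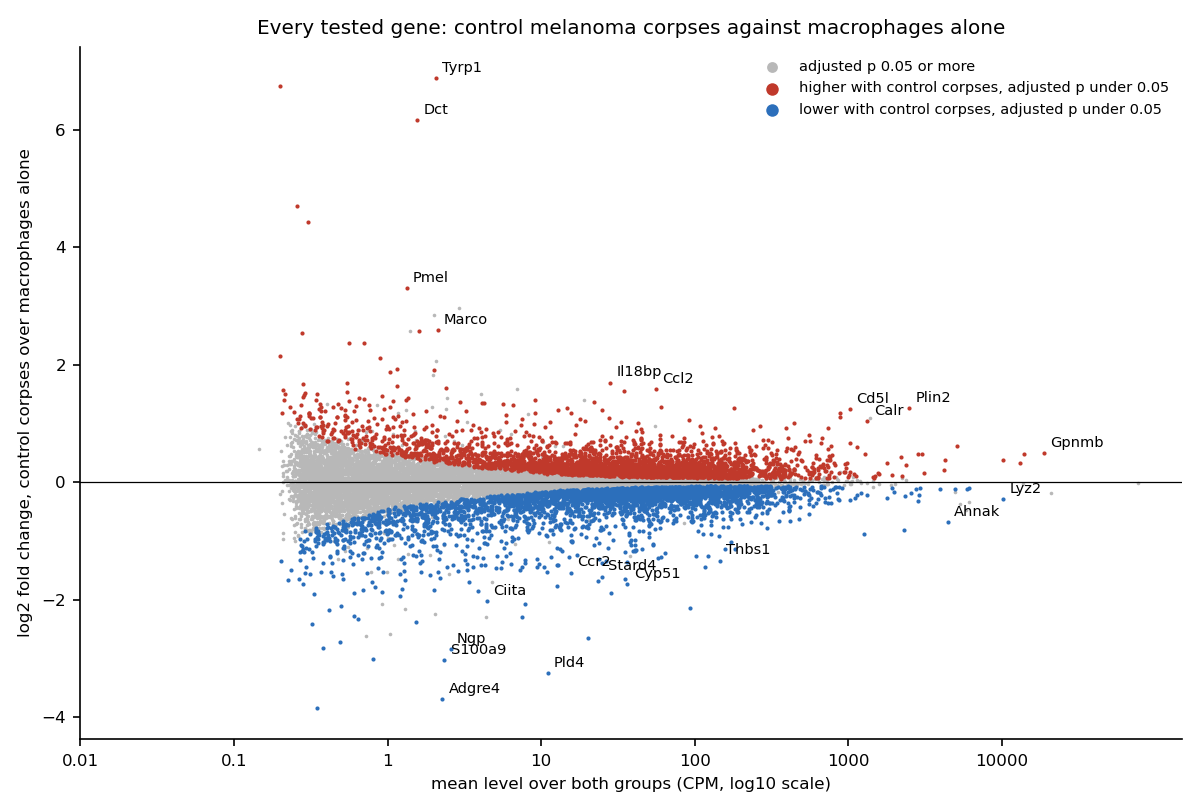
Each point is 1 tested gene, plotted by its mean level over both groups (CPM, log10 axis) and its log2 fold change, control corpses over macrophages alone. Red and blue points are the 3226 higher and 3356 lower genes; the melanocyte genes Tyrp1, Dct and Pmel stand at the top and Adgre4, Pld4 and S100a9 at the bottom of the labelled genes.

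Several genes of different functions rose strongly. Marco, a class A scavenger receptor of macrophages (chromosome 1, 120474538 to 120505024, GRCm38), was at 0.587, 0.612, 0.614 and 0.593 CPM in macrophages alone and at 3.98, 3.70, 3.19 and 3.70 CPM with control corpses. Every library with corpses lay above every library without, by a log2 fold change of 2.59 ± 0.16 (SE; edgeR adjusted p = 1.09e-14). Il18bp, whose product binds and neutralises interleukin-18 (chromosome 7, 102014885 to 102018690), rose from 12.02, 14.1, 14.5 and 12.3 CPM to 42.5, 44.8, 40.4 and 43.6 CPM, by 1.69 ± 0.05 on the log2 scale (edgeR adjusted p = 3.3e-20). Cd300lf, an inhibitory receptor that binds phosphatidylserine (chromosome 11, 115116214 to 115133992), rose from 4.98 ± 0.355 to 13.2 ± 0.625 CPM, with no overlap between groups. Arhgap24, a GTPase-activating protein for Rac, rose from 12.3 ± 0.582 to 31.8 ± 2.64 CPM. Cdkn1c, a cyclin-dependent kinase inhibitor, rose from 3.17 ± 0.309 to 8.04 ± 0.450 CPM, and the glutathione transferase gene Gsta3 from 3.76 ± 0.236 to 9.29 ± 0.544 CPM. Pdia5, a disulphide isomerase of the endoplasmic reticulum, went from 2.35 ± 0.231 to 5.94 ± 0.274 CPM.

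Genes of different functions also fell strongly. Adgre4 (chromosome 17, 55749984 to 55853662), an adhesion G protein-coupled receptor, was at 3.70, 4.46, 4.30 and 4.44 CPM in macrophages alone and at 0.498, 0.428, 0.112 and 0.237 CPM with control corpses. The groups were far apart (log2 fold change −3.70 ± 0.21, edgeR adjusted p = 3.58e-15), although the corpse libraries differed among themselves at this low level. Cytip, a scaffold that regulates integrin adhesion (chromosome 2, 58129137 to 58195532), fell from 45.9, 43.9, 45.7 and 43.5 CPM to 11.9, 12.3, 12.5 and 11.7 CPM, a log2 fold change of −1.89 ± 0.05 (edgeR adjusted p = 3.37e-24). Its libraries were tight in both groups. Dcstamp, needed for fusion of macrophages into multinucleate cells, fell from 35.9 ± 1.49 to 11.2 ± 0.637 CPM. Its partner gene in fusion, Ocstamp, fell less, from 3.504 ± 0.110 to 2.25 ± 0.0999 CPM. Lrrc32, which anchors latent TGF-beta at the cell surface, fell from 6.11 ± 0.583 to 1.70 ± 0.138 CPM. Hpgd, which inactivates prostaglandins, fell from 5.19 ± 0.195 to 1.61 ± 0.445 CPM.

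**Figure D2:**
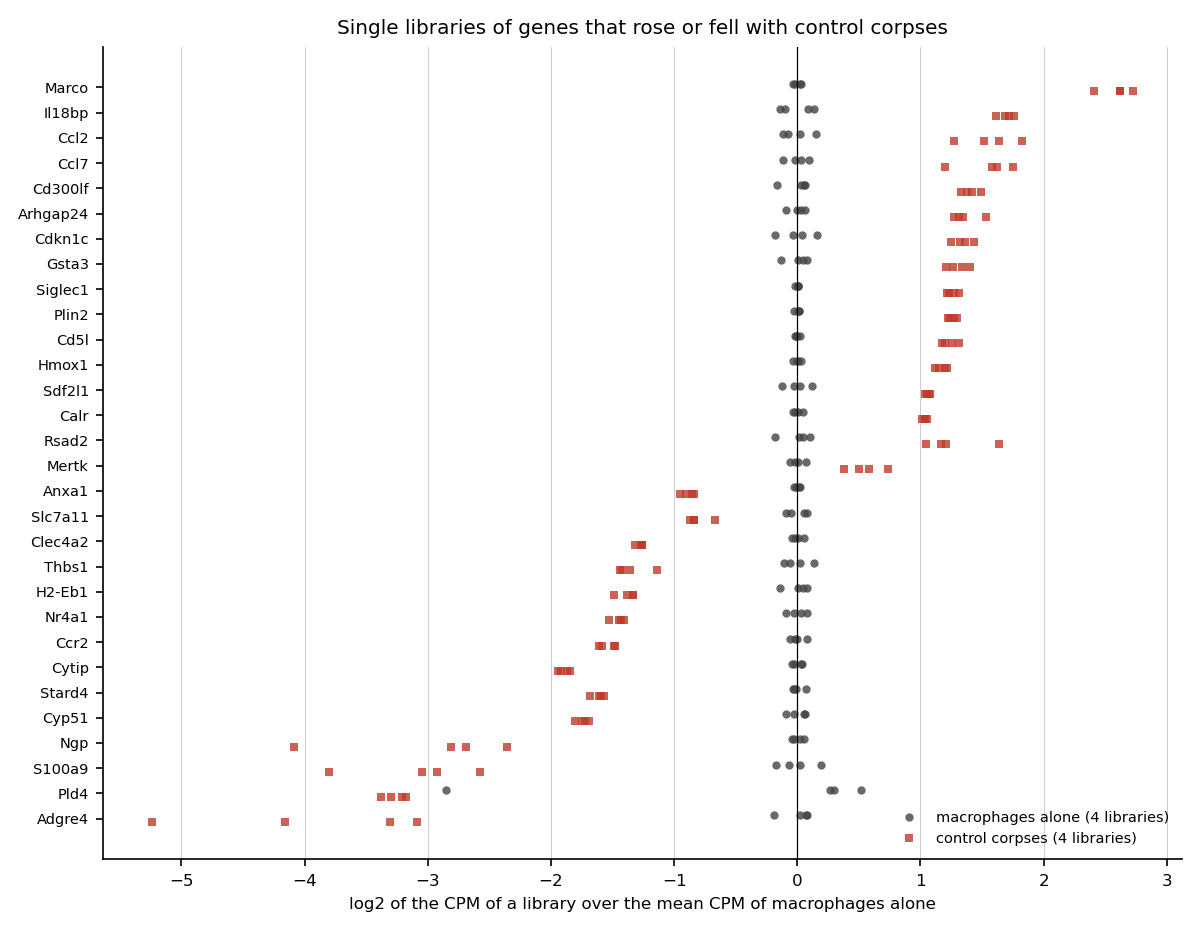
Each row is a gene and each symbol 1 library (grey circles, macrophages alone; red squares, control corpses), plotted as the log2 of its CPM over the mean CPM of macrophages alone. The groups do not overlap for any gene shown; library 4 of macrophages alone stands apart for Pld4.

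Counted in reads rather than in fold, a few abundant genes held part of the gain and less of the loss. The 10 called genes with the largest gains took up an additional 2.46% of all counts, out of 7.33% gained by all called higher genes, and the 10 with the largest losses gave up 0.892% out of 4.87%. Gpnmb, a transmembrane glycoprotein of phagocytes that is also made by melanocytes (chromosome 6, 49036546 to 49070929), held 15560, 15630, 15610 and 15640 CPM in macrophages alone and 20690, 22820, 21480 and 22750 CPM with control corpses. Psap, the precursor of the lysosomal saposins, rose from 11620 ± 181 to 16240 ± 803 CPM, and Ctsb, the gene of the lysosomal protease cathepsin B, from 11590 ± 158 to 14480 ± 286 CPM. Lgals3, coding for galectin 3, rose from 3700 ± 52.3 to 4825 ± 137 CPM. On the other side Ahnak, a giant scaffold protein gene, dropped from 5504 ± 95.4 to 3427 ± 204 CPM, and the elastase gene Mmp12 from 2943 ± 110 to 1662 ± 77.8 CPM. Anxa1, an annexin involved in resolution of inflammation, fell from 1654 ± 27.8 to 894.7 ± 31.7 CPM. Lyz2, the macrophage lysozyme gene, fell from 10920, 11540, 10710 and 11600 CPM to 8915, 10140, 8563 and 9011 CPM (log2 fold change −0.29 ± 0.06, edgeR adjusted p = 0.00421), and corpse library 2 came nearest to the other group. The 100 most abundant genes together held 35.8% ± 0.466 of counts alone and 36.5% ± 0.0812 with corpses (exact two-sided permutation test, p = 0.0286, the smallest that 4 against 4 allows, and 0.0571 adjusted over the 2 shares compared).

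**Figure D3:**
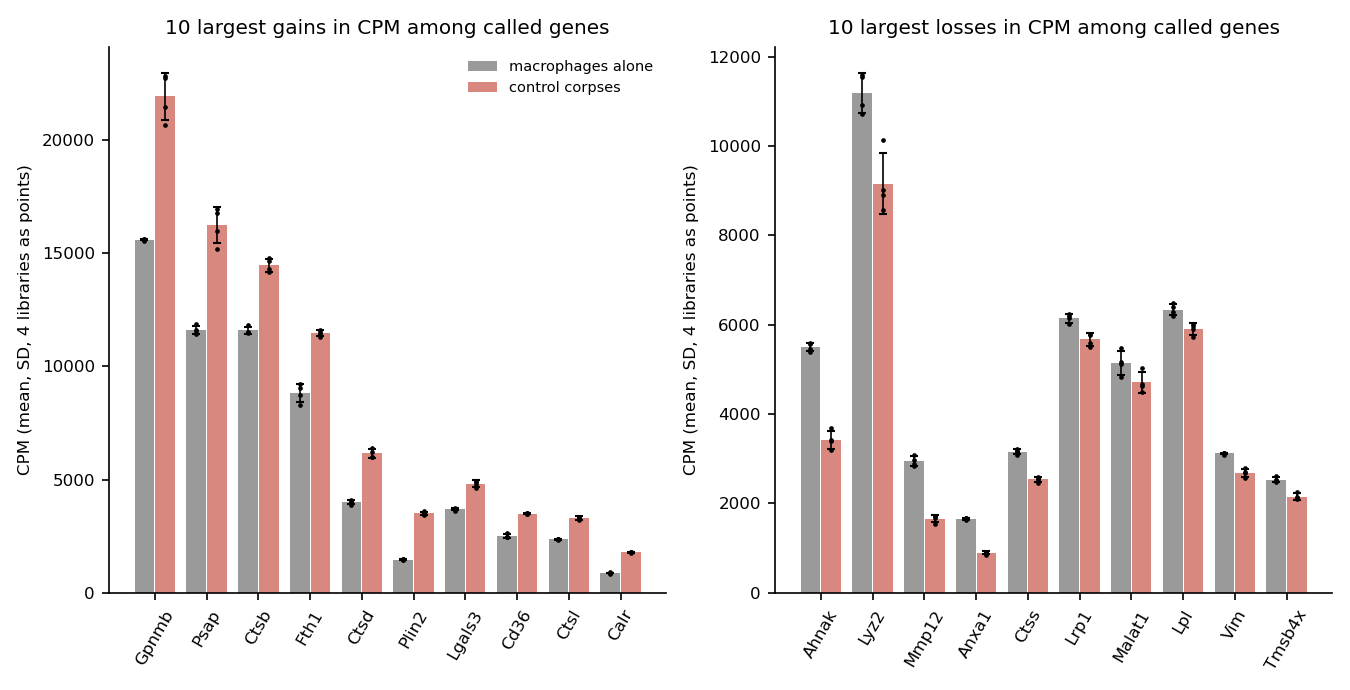
Bars are mean CPM in macrophages alone (grey) and with control corpses (red), error bars are SD over 4 libraries and points are the libraries; the left panel shows the 10 largest gains and the right panel the 10 largest losses in CPM among called genes. Gpnmb gains most, from 15610 to 21930 CPM, and Ahnak loses most, from 5504 to 3427 CPM.

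Transcripts of the pigment cell programme appeared with the corpses. Of 26 melanocyte and neural crest markers 18 were tested and 8 were below the filter; 11 rose, 10 of them by at least 1.5-fold, and 2 fell. The summed level of all 26 was 203.7 to 208.2 CPM alone and 163.5 to 167.2 CPM with control corpses, and most of it was Mitf, which macrophages also make. The summed level of the 21 members that lay below 1 CPM in macrophages alone was 4.14 to 4.75 CPM there and 17.0 to 21.5 CPM with control corpses. Dct, an enzyme of melanin synthesis (chromosome 14, 118012790 to 118052244), was at 0.0691, 0, 0 and 0.0848 CPM in macrophages alone and at 3.21, 3.48, 2.80 and 2.78 CPM with corpses. Pmel, which forms the fibrils of the melanosome (chromosome 10, 128704195 to 128720238), went from 0.138, 0.306, 0.205 and 0.311 CPM to 2.41, 2.90, 1.77 and 2.64 CPM. No library with corpses came near a library without for either gene. Tyr, the rate-limiting enzyme of melanin, had 0 counts in all 4 libraries of macrophages alone and 0.473, 0.306, 0.448 and 0.355 CPM with corpses. Sox10, the neural crest factor, rose from 0.0256 ± 0.0326 to 0.577 ± 0.119 CPM. Ednrb, the receptor for endothelins on pigment cells, was detected in macrophages alone at 0.587, 0.646, 1.02 and 1.05 CPM and reached 3.06, 3.64, 2.80 and 3.23 CPM with corpses (log2 fold change 1.92 ± 0.16, edgeR adjusted p = 1.31e-11). Mitf, which is the pigment cell regulator but is also made by macrophages, went the other way, from 164.7 ± 3.03 to 109.5 ± 2.22 CPM. RNA that remained in bound or engulfed corpses and RNA made by macrophages cannot be told apart in these counts.

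Genes for recognising a corpse split in both directions. Of 40 listed receptors and bridging molecules 35 were tested; 14 rose, 18 fell and 3 were not called, with a median log2 fold change of −0.08. Mertk, the receptor kinase that binds corpses through Gas6 and protein S, rose from 89.7, 92.4, 98.2 and 93.9 CPM to 121.5, 156.2, 132.8 and 140.0 CPM (log2 fold change 0.55 ± 0.08, edgeR adjusted p = 0.000185), and its 4 corpse libraries were all higher though spread. Mfge8, a bridge between phosphatidylserine and integrins, rose from 504.3 ± 13.2 to 844.0 ± 43.1 CPM. Cd36, a scavenger receptor for oxidised lipid, rose from 2504 ± 77.7 to 3492 ± 20.7 CPM, and Stab2, a phosphatidylserine receptor, from 4.79 ± 0.597 to 8.70 ± 1.04 CPM. The bridging molecule Thbs1 (thrombospondin 1) fell from 194.7, 201.4, 229.8 and 212.5 CPM to 77.1, 95.01, 81.9 and 78.0 CPM, a log2 fold change of −1.34 ± 0.08 (edgeR adjusted p = 1.76e-07). Cx3cr1, the receptor for a find-me signal of dying cells, fell from 8.05 ± 0.382 to 3.14 ± 0.191 CPM. The complement components C1qb and C1qc had 960.9 ± 15.6 and 548.2 ± 15.2 CPM alone and 969.2 ± 16.3 and 555.1 ± 7.20 CPM with corpses and were not called. The engulfment machinery was lower in small steps: of 30 actin and phagocytic cup genes 16 fell, 1 rose and none reached 1.5-fold, as for the formin Fmnl1 with 160.2 ± 2.501 against 112.3 ± 3.05 CPM and for the filament-severing protein gene Gsn with 695.5 ± 5.24 against 542.0 ± 8.97 CPM. Of 21 tested integrins and adhesion molecules 14 fell and 3 rose, among them Itgax (CD11c) with 325.9 ± 7.61 against 226.1 ± 5.39 CPM.

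Receptors for microbial sugars and sialic acids were mostly lower. Of 23 listed C-type lectins and Siglecs 19 were tested, 11 fell (8 by at least 1.5-fold) and 2 rose, and the median log2 fold change was −0.45. Clec4a2, an inhibitory lectin, fell from 87.8, 85.0, 82.3 and 83.6 CPM to 35.2, 34.0, 35.4 and 35.4 CPM (log2 fold change −1.27 ± 0.03, edgeR adjusted p = 1.09e-23). Its neighbours in the same gene cluster did likewise, Clec4a1 from 56.4 ± 2.57 to 25.2 ± 1.72 CPM and Clec4a3 from 30.2 ± 1.53 to 15.6 ± 0.671 CPM; reads shared between such related genes could not be separated here. Siglec1, the sialoadhesin of tissue macrophages and an interferon-induced gene (chromosome 2, 131069220 to 131086765), was the main exception, rising from 104.5, 106.1, 106.0 and 106.3 CPM to 245.6, 255.7, 262.7 and 248.8 CPM (log2 fold change 1.26 ± 0.03, edgeR adjusted p = 3.85e-25). All 4 corpse libraries lay far above the level without corpses. Of 13 Fc and complement receptors 3 rose and 6 fell, and the activating receptor Fcgr4 (31.1 ± 0.820 to 58.4 ± 2.17 CPM) moved against the inhibitory receptor Fcgr2b (55.6 ± 4.597 to 26.7 ± 2.24 CPM). Of 24 Toll-like receptors and adaptors 6 rose and 8 fell. Cd14, the coreceptor for endotoxin, fell from 172.9 ± 5.15 to 71.8 ± 7.53 CPM and the DNA receptor Tlr9 from 25.6 ± 0.610 to 14.8 ± 1.13 CPM, while Tlr4 went up from 94.8 ± 3.66 to 116.2 ± 2.49 CPM.

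The digestive system of the cell was higher. Of 47 lysosomal hydrolases and membrane proteins 34 rose, 7 of them by at least 1.5-fold, and 6 fell, with a median log2 fold change of 0.26. Ctsd, the aspartic protease cathepsin D, rose from 3892, 4012, 4109 and 4068 CPM to 6002, 6404, 6021 and 6231 CPM (log2 fold change 0.62 ± 0.03, edgeR adjusted p = 9.53e-19). Naglu, which degrades heparan sulphate, rose from 115.3 ± 2.13 to 186.1 ± 9.07 CPM. The groups were clear of each other for both. Ctss, the protease of antigen presentation, was among the 6 that fell, from 3157 ± 56.3 to 2536 ± 49.7 CPM. Of 18 subunits of the V-ATPase, the proton pump that acidifies the lysosome, 13 rose and 1 fell, all by less than 1.5-fold, and Atp6v0c rose most, from 390.7 ± 7.82 to 545.9 ± 11.8 CPM. Autophagy genes were not part of this rise, with 5 higher and 13 lower of 32. Tfeb, the regulator of lysosomal genes, fell from 79.5 ± 3.06 to 60.3 ± 1.73 CPM, its relative Tfe3 was at 132.7 ± 3.39 and 132.5 ± 5.18 CPM and not called, and the autophagy kinase gene Ulk1 fell from 49.9 ± 1.90 to 36.6 ± 1.17 CPM.

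The promoters of lysosomal genes carry a known 8-base palindrome, TCACGTGA, and 4 of the 39 lysosomal genes with a promoter in the RefSeq table (250 bases before to 50 after the start, GRCm38.p6) hold it on either strand, or 10.3%, as do 3 of 12 V-ATPase genes. The share among all 27025 genes with a promoter was 1.12%. A match describes letters, not a bound site. The following windows show the palindrome in capitals with 10 bases either side, read on the gene's own strand, for 3 genes that rose.
Ctsd: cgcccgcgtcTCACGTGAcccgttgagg
Mcoln1: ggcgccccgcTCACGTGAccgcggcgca
Atp6v0d1: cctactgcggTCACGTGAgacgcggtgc
They lie at chr7:142387909-142387936 (minus strand), chr8:3500463-3500490 (plus) and chr8:105566051-105566078 (minus). Mcoln1, a calcium channel of the lysosome, rose from 48.9 ± 1.597 to 65.3 ± 1.44 CPM and Atp6v0d1, a subunit of the proton pump, from 132.9 ± 3.39 to 182.9 ± 6.79 CPM.

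Enzymes that degrade the nucleic acids of a corpse went both ways. Of 23 listed genes 18 were tested. Of these 5 rose (27.8%) and 6 fell (33.3%), against 24.3% and 24.4% of protein-coding genes. Dnase2a, the acid DNase of the lysosome, rose from 111.4 ± 2.05 to 132.9 ± 1.11 CPM and the exonuclease gene Pld3 from 646.6 ± 11.1 to 871.3 ± 18.1 CPM. The ribonuclease gene Rnase6 fell from 2.63, 2.31, 3.22 and 3.25 CPM to 0.895, 0.917, 1.01 and 0.977 CPM (log2 fold change −1.59 ± 0.16, edgeR adjusted p = 6.8e-10). Pld4, a second endolysosomal exonuclease (chromosome 12, 112760655 to 112768990), was at 24.6, 24.1, 28.6 and 2.77 CPM in macrophages alone and at 2.04, 1.93, 2.21 and 2.16 CPM with control corpses. Library 4 of macrophages alone was thus close to the corpse libraries, and in the STC1OE group library 4 was at 33.8 CPM where the other 3 were at 2.09 to 2.40 CPM. The log2 fold change of −3.25 ± 1.14 passed narrowly (edgeR adjusted p = 0.047). Without library 4 of macrophages alone it was −3.63 with an adjusted p of 0.0246, and with any of the other 7 libraries left out the adjusted p was 0.0874 to 0.1.

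Sterol genes were mostly lower. Of 26 genes of sterol synthesis and uptake, the targets of SREBP2, 22 fell, 18 of them by at least 1.5-fold, 1 rose and 3 were not called, with a median log2 fold change of −1.07. Stard4, which moves cholesterol between membranes, fell from 39.5, 36.9, 37.2 and 36.8 CPM to 12.3, 12.5, 11.7 and 12.7 CPM (log2 fold change −1.61 ± 0.05, edgeR adjusted p = 1.1e-22). Cyp51, which removes a methyl group from lanosterol, fell from 58.5, 58.3, 52.7 and 55.0 CPM to 16.7, 16.04, 17.3 and 17.0 CPM (log2 fold change −1.74 ± 0.04, edgeR adjusted p = 1.44e-24). The corpse libraries were tight and far below the others for both. Insig1, which retains SREBP in the endoplasmic reticulum, fell from 82.2 ± 0.799 to 33.4 ± 1.04 CPM and the gene of the regulator itself, Srebf2, from 217.0 ± 6.68 to 98.4 ± 2.53 CPM. Dhcr7 and Tmem97 were not called, with 23.9 ± 0.816 against 22.8 ± 0.763 CPM and 21.3 ± 0.953 against 20.5 ± 0.849 CPM. The sterol element TCACNCCAC was found in the promoter of 1 of 18 of these genes, or 5.56%, against 1.44% of all. That gene is Hmgcs1, which makes the first committed intermediate and fell by 1.16 on the log2 scale, and the window at chr13:119690204-119690232 (plus strand) shows the element in capitals.
Hmgcs1: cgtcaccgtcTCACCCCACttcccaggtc

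Fatty acid synthesis did not follow as a block. Of 17 listed SREBP1 targets 14 were tested, 5 rose and 4 fell. Fads2, the delta-6 desaturase of polyunsaturated fatty acids, fell from 4.21, 4.76, 4.09 and 3.93 CPM to 1.57, 1.53, 1.35 and 1.48 CPM (log2 fold change −1.52 ± 0.12, edgeR adjusted p = 1.47e-11), while Me1, which supplies NADPH, rose from 4.07 ± 0.776 to 6.90 ± 0.341 CPM. Acly and Scd2 were at 226.0 ± 0.911 and 109.7 ± 2.68 CPM alone and 218.6 ± 9.22 and 108.7 ± 3.53 CPM with corpses and were not called.

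Targets of lipid-sensing receptors and genes of fatty acid oxidation were mostly higher, and lipid droplet genes were mixed. Of 27 listed targets of the nuclear receptors LXR and PPAR 21 were tested, 15 rose, 10 by at least 1.5-fold, and 3 fell, with a median log2 fold change of 0.49. Abca1, the exporter that loads cholesterol onto lipoprotein, rose from 490.4, 509.5, 534.4 and 501.9 CPM to 937.1, 1026, 921.7 and 964.7 CPM (log2 fold change 0.92 ± 0.03, edgeR adjusted p = 2.93e-20). Cd5l, a secreted LXR target of macrophages (chromosome 3, 87357881 to 87371073), rose from 610.3, 604.1, 621.0 and 607.9 CPM to 1380, 1517, 1406 and 1455 CPM, a log2 fold change of 1.24 ± 0.03 (edgeR adjusted p = 1.64e-25). In both, the lowest corpse library was well above the highest library alone. Nr1h3, the gene of LXR-alpha, rose from 43.1 ± 2.41 to 60.6 ± 1.88 CPM, whereas Pparg fell from 64.2 ± 2.85 to 44.1 ± 2.51 CPM. Apoe, the apolipoprotein that carries exported cholesterol, was at 5238 ± 303 and 4682 ± 202 CPM and was not called (edgeR adjusted p = 0.126), but was called lower when only these 2 groups were fitted (adjusted p = 0.00517). Direct repeats of GGTCA with 5 bases (DR4) or 2 bases (DR1) between them, exact forms of these receptors' patterns, were not found in the 20 promoters of this list. They occur in only 0.0851% and 0.248% of all genes, so 20 promoters are too few for their absence to say anything about this list. Of 22 lipid droplet genes 19 were tested, 8 rose, 4 fell and 7 were not called: the droplet coat gene Plin2 (1466 ± 20.5 to 3508 ± 77.0 CPM) and the lipase inhibitor Hilpda (9.65 ± 0.597 to 21.9 ± 1.77 CPM) rose most, and the neutral lipases Lipe (10.8 ± 0.0861 to 6.85 ± 0.342 CPM) and Mgll (17.0 ± 0.801 to 12.6 ± 0.676 CPM) fell. Of 21 tested genes of mitochondrial fatty acid oxidation 14 rose and 2 fell, led by Cpt1a, the entry step, with 199.2 ± 3.64 against 304.9 ± 10.7 CPM.

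Protein folding in the endoplasmic reticulum rose as a group. Of 32 chaperones and degradation factors 25 rose, 11 of them by at least 1.5-fold, 3 fell and 4 were not called, with a median log2 fold change of 0.48. Sdf2l1, a partner of the chaperone BiP, rose from 54.2, 58.0, 64.2 and 59.97 CPM to 122.5, 121.6, 125.0 and 124.1 CPM (log2 fold change 1.06 ± 0.03, edgeR adjusted p = 1.88e-20). Pdia6, a disulphide isomerase, rose from 179.7, 179.3, 183.7 and 180.1 CPM to 351.8, 348.0, 345.6 and 348.7 CPM, or 0.95 ± 0.02 on the log2 scale (edgeR adjusted p = 2.98e-24). The 4 corpse libraries were almost equal for both. Hyou1, a large chaperone, rose from 270.4 ± 2.07 to 513.0 ± 19.3 CPM. Hspa5, which codes for BiP itself, rose from 799.4 ± 21.8 to 1267 ± 18.7 CPM and Hsp90b1 from 303.1 ± 15.1 to 508.7 ± 13.3 CPM. The sensors of misfolding were among the 3 that fell: Atf6 from 199.8 to 164.6 CPM and Ern1 from 83.0 to 75.7 CPM on average.

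Promoters of this group share a bipartite letter pattern, CCAAT followed after 9 bases by CCACG, known as the endoplasmic reticulum stress element. It was found on either strand in 9 of the 26 members with a promoter in the RefSeq table, or 34.6%, against 37 of 27025 genes, or 0.137%. The 8 of these that rose are printed because all of them carry the whole pattern, and the ninth, Derl3, was not called. Each window has the element in capitals with 10 bases on both sides and is turned so that the element reads forward (GRCm38.p6).
Calr: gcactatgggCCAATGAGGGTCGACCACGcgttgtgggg
Pdia6: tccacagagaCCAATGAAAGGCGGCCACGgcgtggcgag
Hsp90b1, near the start: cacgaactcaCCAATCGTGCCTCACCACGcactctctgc
Hsp90b1, farther upstream: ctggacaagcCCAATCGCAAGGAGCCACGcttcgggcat
Creld2: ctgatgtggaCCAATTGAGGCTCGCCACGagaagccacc
Hspa5: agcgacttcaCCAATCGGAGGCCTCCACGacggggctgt
Dnajc3: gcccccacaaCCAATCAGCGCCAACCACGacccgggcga
Canx: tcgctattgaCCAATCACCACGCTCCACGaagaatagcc
Syvn1: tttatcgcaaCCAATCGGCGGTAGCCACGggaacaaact
The Calr window lies at chr8:84847065-84847103 (plus strand), that of Pdia6 at chr12:17266481-17266519 (plus), that of Hspa5 at chr2:34772015-34772053 (plus) and that of Canx at chr11:50325790-50325828 (minus). In the order printed, the log2 fold changes ran from 1.04 for Calr through 0.95 for Pdia6, 0.75 for Hsp90b1, 0.72 for Creld2, 0.66 for Hspa5, 0.50 for Dnajc3 and 0.39 for Canx to 0.32 for Syvn1. The whole promoter of Hspa5, chr2:34771840-34772139 on the plus strand, shows where the element stands relative to the other CCAAT letters.
Hspa5 promoter: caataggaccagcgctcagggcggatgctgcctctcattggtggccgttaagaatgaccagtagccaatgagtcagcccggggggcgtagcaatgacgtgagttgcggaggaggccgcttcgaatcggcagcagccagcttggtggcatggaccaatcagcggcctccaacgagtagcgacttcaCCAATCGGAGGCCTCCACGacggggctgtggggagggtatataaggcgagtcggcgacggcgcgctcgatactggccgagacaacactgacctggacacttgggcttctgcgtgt

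The amino acid stress branch did not rise with the chaperones. Of 31 listed ATF4 targets 25 were tested, 15 fell and 5 rose, with a median log2 fold change of −0.24. Trib3, a pseudokinase induced by ATF4, fell from 3.28, 3.84, 3.68 and 4.13 CPM to 2.02, 2.08, 1.68 and 2.10 CPM (log2 fold change −0.93 ± 0.12, edgeR adjusted p = 2.47e-07). The cystine transporter gene Slc7a11 fell from 33.8, 30.0, 30.8 and 33.3 CPM to 17.5, 17.8, 20.2 and 17.9 CPM, by 0.80 ± 0.05 on the log2 scale (edgeR adjusted p = 1.13e-14). Phgdh, the first enzyme of serine synthesis, fell from 5.37 ± 0.272 to 3.44 ± 0.681 CPM. Amino acid transporters, a list that overlaps with the ATF4 targets, were mostly higher: of 21 tested 13 rose and 4 fell. The largest rise in both lists was 0.81 on the log2 scale, that of the leucine carrier Slc7a5 (12.1 ± 0.686 to 21.2 ± 1.85 CPM). It was the 1 ATF4 target that rose by at least 1.5-fold. The cationic amino acid exporter Slc7a7 (21.0 ± 0.947 to 35.7 ± 1.66 CPM) and the lysosomal peptide and histidine carrier Slc15a3 (245.3 ± 32.6 to 392.7 ± 5.06 CPM) also rose. Of 20 aminoacyl-tRNA synthetases 12 rose and 3 fell, all by less than 1.5-fold. Wars, which charges tryptophan and is interferon-induced, rose most, from 36.1 ± 1.74 to 51.7 ± 2.35 CPM.

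**Figure D4:**
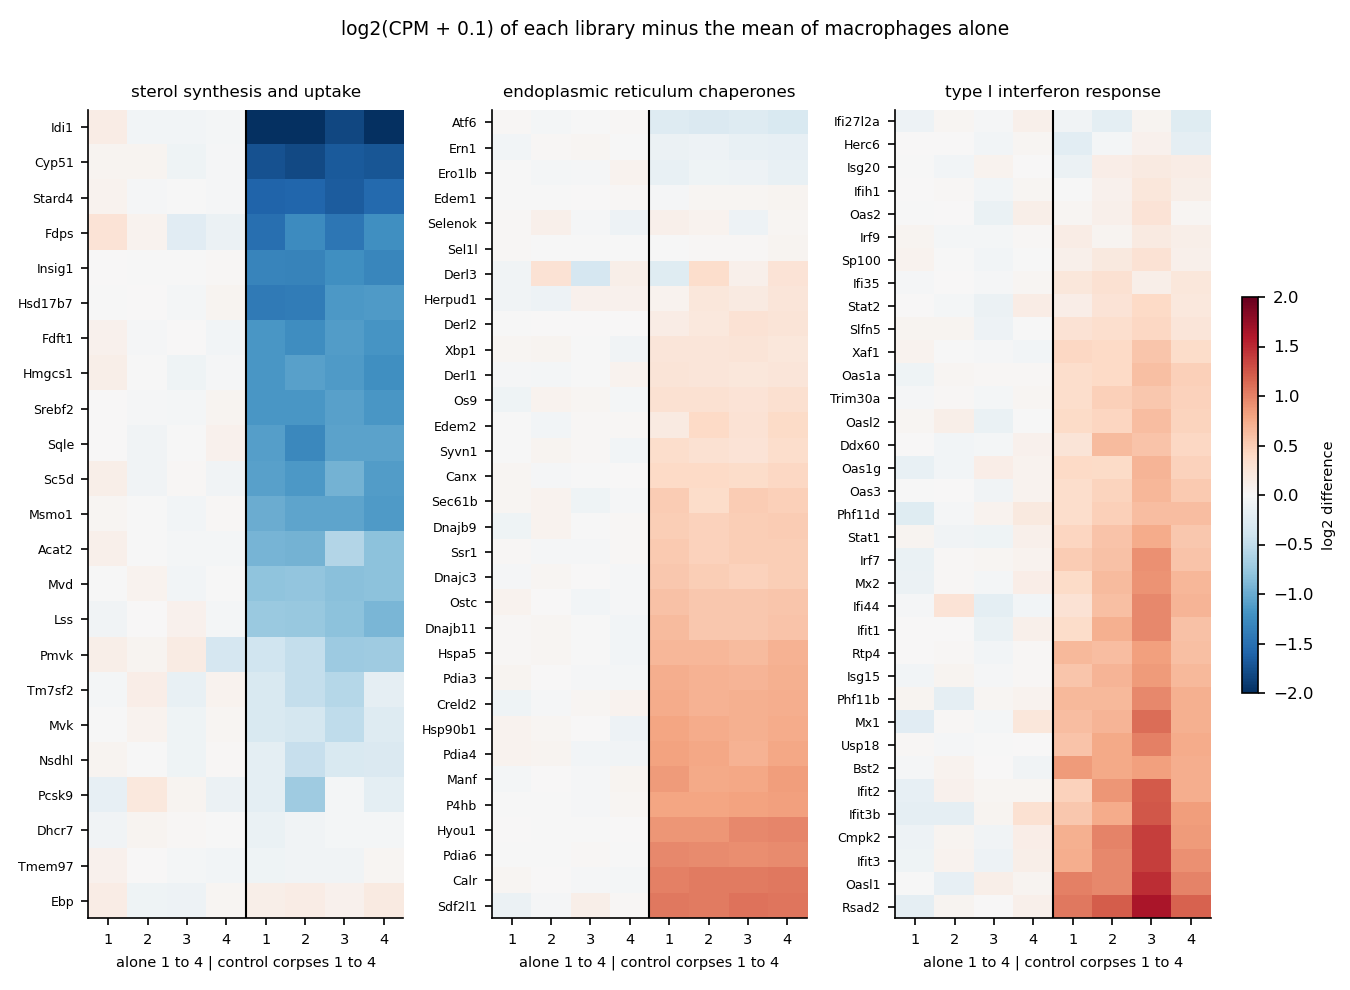
Rows are tested genes of 3 lists and columns the 8 libraries; colour gives log2(CPM + 0.1) minus the mean of macrophages alone, red for higher and blue for lower. Sterol genes turn blue and chaperone genes red evenly in the 4 corpse libraries, and most interferon genes are reddest in library 3, Bst2 being an exception.

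Genes induced by type I interferon rose almost throughout. Of 36 listed 35 were tested; 30 rose, 16 of them by at least 1.5-fold, none fell and 5 were not called, with a median log2 fold change of 0.50. Ifit3, which binds viral RNA complexes, rose from 20.4, 22.8, 20.2 and 23.7 CPM to 35.9, 42.6, 56.9 and 41.0 CPM (log2 fold change 1.02 ± 0.16, edgeR adjusted p = 0.000632). Cmpk2, a mitochondrial nucleotide kinase, rose from 26.4, 29.5, 26.9 and 31.2 CPM to 46.6, 56.4, 74.0 and 51.4 CPM (log2 fold change 1.00 ± 0.16, edgeR adjusted p = 0.000752). Library 3 of the corpse group was the highest for both, and no corpse library fell to the level without corpses. Without that library 29 of the 35 genes were higher, 1 was lower and the median was 0.48. Bst2, the tether that holds budding virus (chromosome 8, 71534255 to 71537456), was even among libraries, with 51.7, 55.0, 52.9 and 50.2 CPM alone and 94.7, 88.3, 92.5 and 87.2 CPM with corpses (log2 fold change 0.79 ± 0.03, edgeR adjusted p = 4.16e-18). Isg15, a ubiquitin-like modifier, rose from 7.71 ± 0.273 to 12.5 ± 1.09 CPM and Irf7, the amplifying transcription factor, from 39.2 ± 2.27 to 61.6 ± 8.05 CPM. Oas2, a synthetase that senses double-stranded RNA, was at 35.2 ± 2.48 CPM alone and 38.1 ± 3.10 CPM with corpses and was not called. Ifit3 and its near copy Ifit3b could share reads.

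In the promoters of these genes the interferon element GAAANNGAA occurred in 17 of 29, or 58.6%, against 9.76% of all genes. In Isg15, Bst2 and Ifit1 matches overlap, and Rsad2, whose log2 fold change was 1.28, holds 1 match. These windows have the matches in capitals and are printed on the strand where they read forward.
Isg15: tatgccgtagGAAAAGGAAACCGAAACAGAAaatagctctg
Bst2: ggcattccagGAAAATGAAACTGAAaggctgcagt
Ifit1: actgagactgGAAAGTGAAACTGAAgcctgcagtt
Rsad2: tctgttttctGAAAATGAAagttggacca
Isg15 is at chr4:156200866-156200906 (minus strand, 3 overlapping matches), Bst2 at chr8:71537578-71537612 (minus, 2 matches), the Ifit1 pair at chr19:34640770-34640804 (minus) and Rsad2 at chr12:26456553-26456581 (plus). Rsad2, an antiviral radical enzyme, was at 35.1 CPM on average alone; Isg15 and Ifit1 rose by 0.69 and 0.67 on the log2 scale.

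Sensors of nucleic acid outside the lysosome were higher more often than lower. Of 17 tested genes 11 rose and 3 fell, with a median log2 fold change of 0.28. Cgas, the sensor of cytosolic DNA, rose from 14.8 ± 0.503 to 20.3 ± 1.25 CPM and Zbp1, a sensor of left-handed nucleic acid, from 8.94 ± 0.881 to 14.5 ± 2.84 CPM. Tmem173, the gene of the adaptor STING that Cgas signals through, fell from 24.4 ± 0.858 to 18.7 ± 0.540 CPM. Genes tied to interferon gamma did not rise as a group: of 23 listed 17 were tested, 5 rose and 6 fell, among the latter the receptor gene Ifngr1 (139.4 ± 4.06 to 94.0 ± 1.72 CPM) and Irf1 (32.9 ± 1.10 to 24.6 ± 1.33 CPM). Socs1, the feedback inhibitor of both pathways, rose from 2.69 ± 0.0806 to 4.34 ± 0.357 CPM.

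Chemokine ligands went both ways and chemokine receptors fell or were not called. Of 26 ligands 17 were tested, 7 rose, 6 by at least 1.5-fold, 5 fell and 5 were not called, and the summed level of all 26 was 929.3 ± 12.5 CPM alone and 839.9 ± 70.8 CPM with corpses. Ccl2, the monocyte attractant, rose from 26.1, 28.6, 26.8 and 31.4 CPM to 99.8, 68.2, 87.7 and 80.6 CPM (log2 fold change 1.58 ± 0.13, edgeR adjusted p = 3.62e-06). Ccl7, which signals through the same receptor, rose from 17.3, 16.2, 17.9 and 18.7 CPM to 59.1, 40.2, 54.0 and 52.4 CPM (log2 fold change 1.55 ± 0.13, edgeR adjusted p = 4.9e-06). Library 2 was the lowest of the corpse libraries for both. Cxcl14, an attractant of myeloid cells, rose from 1.19 ± 0.376 to 3.61 ± 0.493 CPM and Ccl4 from 15.5 ± 0.576 to 23.4 ± 2.90 CPM. Of 17 receptors 12 were tested, 7 fell, 6 of them by at least 1.5-fold, and none rose. Ccr2, the receptor for Ccl2 and Ccl7 (chromosome 9, 124101950 to 124113557), fell from 23.1, 22.3, 22.9 and 24.5 CPM to 7.61, 8.28, 7.73 and 8.32 CPM (log2 fold change −1.54 ± 0.07, edgeR adjusted p = 4.22e-18). Ccr3 fell from 42.2 ± 1.59 to 25.6 ± 1.39 CPM and Ccr1 from 138.6 ± 3.87 to 90.4 ± 3.69 CPM.

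Cytokine genes of the classical inflammatory response split. Of 34 listed 27 were tested, 16 fell and 7 rose, with a median log2 fold change of −0.18. Tnf rose from 33.4, 34.1, 30.9 and 33.3 CPM to 53.9, 46.5, 47.7 and 47.7 CPM (log2 fold change 0.57 ± 0.05, edgeR adjusted p = 1.64e-09). Il1a, coding for an alarmin of the interleukin-1 family, was near the detection limit alone, at 0.138 to 0.340 CPM, and at 1.01 to 1.39 CPM with corpses. Their groups did not overlap. Nfkbiz, an inducible regulator of NF-kB, fell from 12.7 ± 1.01 to 7.39 ± 0.825 CPM, and the interleukin-1 receptor antagonist gene Il1rn from 207.3 ± 14.2 to 144.0 ± 18.4 CPM. Csf1, the gene of M-CSF itself, fell from 12.8 ± 0.498 to 8.49 ± 0.358 CPM.

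Genes for antigen presentation to CD4 T cells were lower. Of 14 class II genes 11 were tested, 10 fell, 7 by at least 1.5-fold, none rose and Ifi30 was not called, with a median log2 fold change of −0.79. Ciita, the master regulator (chromosome 16, 10480059 to 10528418), fell from 6.15, 6.6, 7.69 and 7.86 CPM to 1.37, 1.62, 1.93 and 2.04 CPM (log2 fold change −2.03 ± 0.13, edgeR adjusted p = 4.28e-14). H2-Eb1, the beta chain of I-E, fell from 32.6, 36.2, 37.9 and 37.2 CPM to 14.3, 14.2, 13.8 and 12.9 CPM (log2 fold change −1.38 ± 0.05, edgeR adjusted p = 2.93e-20). All corpse libraries lay below all others for both genes. The class I list moved little and upward, with 10 of 18 higher and 1 lower: Tap1, the peptide transporter, rose from 54.9 ± 3.17 to 65.0 ± 3.88 CPM, H2-K1 was at 639.5 ± 30.7 and 641.1 ± 18.1 CPM and was not called, and H2-Q4 fell from 14.4 ± 0.783 to 9.34 ± 0.804 CPM. Among 15 tested ligands for T cell receptors 3 rose (20.0%) and 5 fell (33.3%), against 24.3% and 24.4% of protein-coding genes. The costimulator Cd86 fell from 6.29 ± 0.274 to 2.36 ± 0.132 CPM and the inhibitory ligand Vsir (VISTA) from 582.8 ± 6.74 to 374.8 ± 12.1 CPM. Lgals9 (galectin 9) rose from 80.1 ± 3.38 to 142.0 ± 2.19 CPM.

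Transcription factors of the macrophage lineage were mostly lower. Of 29 tested 20 fell, 5 by at least 1.5-fold, and 5 rose, with a median log2 fold change of −0.27. Nr4a1, an orphan nuclear receptor and immediate early gene (chromosome 15, 101254269 to 101274795), fell from 13.5, 14.6, 14.1 and 13.0 CPM to 5.20, 5.10, 4.79 and 5.06 CPM (log2 fold change −1.45 ± 0.07, edgeR adjusted p = 1.38e-16). Klf4, a zinc finger factor of monocytes, fell from 7.85 ± 0.813 to 3.60 ± 0.358 CPM and Egr2 from 2.06 ± 0.298 to 0.876 ± 0.199 CPM. Of 29 immediate early and AP-1 genes 11 fell and 7 rose, so these did not move together: the antiproliferative gene Btg2 fell from 24.2 ± 0.919 to 10.3 ± 0.448 CPM and the ERK phosphatase gene Dusp6 rose from 93.9 ± 2.23 to 178.2 ± 3.67 CPM. Genes of alternative activation and resolution were divided as well, with 8 higher and 10 lower of 23 tested. Chil3, a chitinase-like protein, fell from 2.57 ± 0.587 to 0.494 ± 0.0438 CPM and Ahr, the aryl hydrocarbon receptor, from 4.47 ± 0.432 to 1.93 ± 0.347 CPM.

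Iron and redox genes rose more often than they fell. Of 21 tested genes of heme, iron and ferritin 11 rose and 4 fell. Tfrc, the transferrin receptor, rose from 174.9, 166.6, 163.9 and 168.0 CPM to 307.8, 315.3, 307.9 and 307.3 CPM (log2 fold change 0.88 ± 0.03, edgeR adjusted p = 2.53e-22). Slc48a1, which moves heme out of the phagolysosome, rose from 355.5 ± 4.62 to 540.2 ± 10.9 CPM, and Hmox1, which opens the heme ring, from 545.9 ± 10.6 to 1230 ± 38.1 CPM. Of 23 NRF2 and antioxidant genes 15 rose and 7 fell, with Prdx6, a peroxidase of phospholipids, at 61.0 ± 0.975 against 97.4 ± 2.03 CPM and the glutathione reductase gene Gsr at 78.1 ± 2.42 against 117.7 ± 2.28 CPM. The antioxidant element TGACNNNGC occurred in 7 of 20 promoters of this list, or 35.0%, against 3781 of all 27025 genes. These 7 genes did not move together. Some were called higher and others lower, with log2 fold changes from −0.367 to 1.305, the highest being that of Gsta3. Of 10 tested metallothionein and zinc transporter genes 7 rose and 1 fell, among them Mt1 with 48.3 ± 2.83 against 67.6 ± 5.22 CPM.

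Energy metabolism changed in small steps. Of 22 genes of the citric acid cycle and itaconate 13 rose and 1 fell; Acod1, which makes itaconate, rose from 1.35, 2.18, 2.11 and 1.75 CPM to 3.26, 4.03, 4.04 and 4.00 CPM (log2 fold change 1.05 ± 0.13, edgeR adjusted p = 1.11e-07). The groups were apart. Of 33 tested nuclear genes of the respiratory chain 11 rose, 1 fell and 21 were not called, and Cyc1 rose from 61.1 ± 0.497 to 80.0 ± 1.97 CPM. The share of counts on mitochondrial genes was 3.73% ± 0.545 alone and 3.32% ± 0.288 with corpses, and the exact two-sided permutation test gave p = 0.2 (n = 4). Of 12 tested mRNAs encoded in mitochondria 4 rose and none fell, with a median log2 fold change of 0.20 and, over all 13 listed, a summed level of 7553 ± 859 CPM alone and 8555 ± 628 CPM with corpses. Of 25 glycolysis and pentose phosphate genes 11 rose and 6 fell, none by 1.5-fold: the hexokinase gene Hk2 rose from 99.0 ± 3.36 to 133.2 ± 1.83 CPM. Epas1, the gene of HIF-2 alpha, rose from 4.81 ± 0.502 to 10.1 ± 0.170 CPM while 9 of 19 tested hypoxia targets fell and 4 rose. In polyamine synthesis Odc1, the first enzyme, rose from 76.7 ± 3.12 to 119.9 ± 6.80 CPM and the spermidine synthase gene Srm from 34.1 ± 1.48 to 55.6 ± 3.06 CPM, among 5 higher and 4 lower of 14.

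Ribosomal protein genes were mostly lower and proteasome genes mostly higher. Of 45 cytosolic ribosomal protein genes 34 fell, none rose and none reached 1.5-fold, with a median log2 fold change of −0.23. Rpl7 fell from 389.6, 369.4, 382.8 and 375.7 CPM to 297.5, 283.7, 288.2 and 292.2 CPM (log2 fold change −0.39 ± 0.03, edgeR adjusted p = 1.94e-13), and Rplp0 was at 781.2 ± 6.82 and 783.6 ± 6.35 CPM and was not called. Ribosomal protein genes have many processed copies in the genome with which reads can be shared. Of 36 proteasome subunits 25 rose and 1 fell, with a median of 0.16. Psmd2, of the regulatory cap, rose from 283.6, 284.1, 275.4 and 288.0 CPM to 356.8, 360.5, 362.4 and 360.9 CPM (log2 fold change 0.35 ± 0.02, edgeR adjusted p = 1.61e-13). Heat shock chaperones of the cytosol and mitochondria showed 9 higher and 3 lower of 22 tested, and Hsp90aa1 was at 338.0 ± 19.1 and 331.1 ± 19.6 CPM and not called.

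Genes for DNA replication were mostly higher, and most genes for division were not called. Of 32 S phase genes 21 rose and 1 fell, with a median log2 fold change of 0.25. Cdc45, of the replicative helicase, rose from 8.77, 8.06, 8.04 and 9.58 CPM to 13.0, 13.3, 13.2 and 13.2 CPM (log2 fold change 0.61 ± 0.07, edgeR adjusted p = 4.97e-09), and the licensing gene Mcm2 from 63.1 ± 2.59 to 90.8 ± 6.70 CPM. Of 30 genes of mitosis 3 rose, 6 fell and 21 were not called. These counts for mitosis depended on single libraries. Leaving out library 1 of macrophages alone gave 6 higher and 3 lower, and leaving out its library 3 gave 1 and 8. Leaving out library 1 of the corpse group gave 1 higher and 10 lower, and leaving out its library 2 gave 5 and 4.

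**Figure D5:**
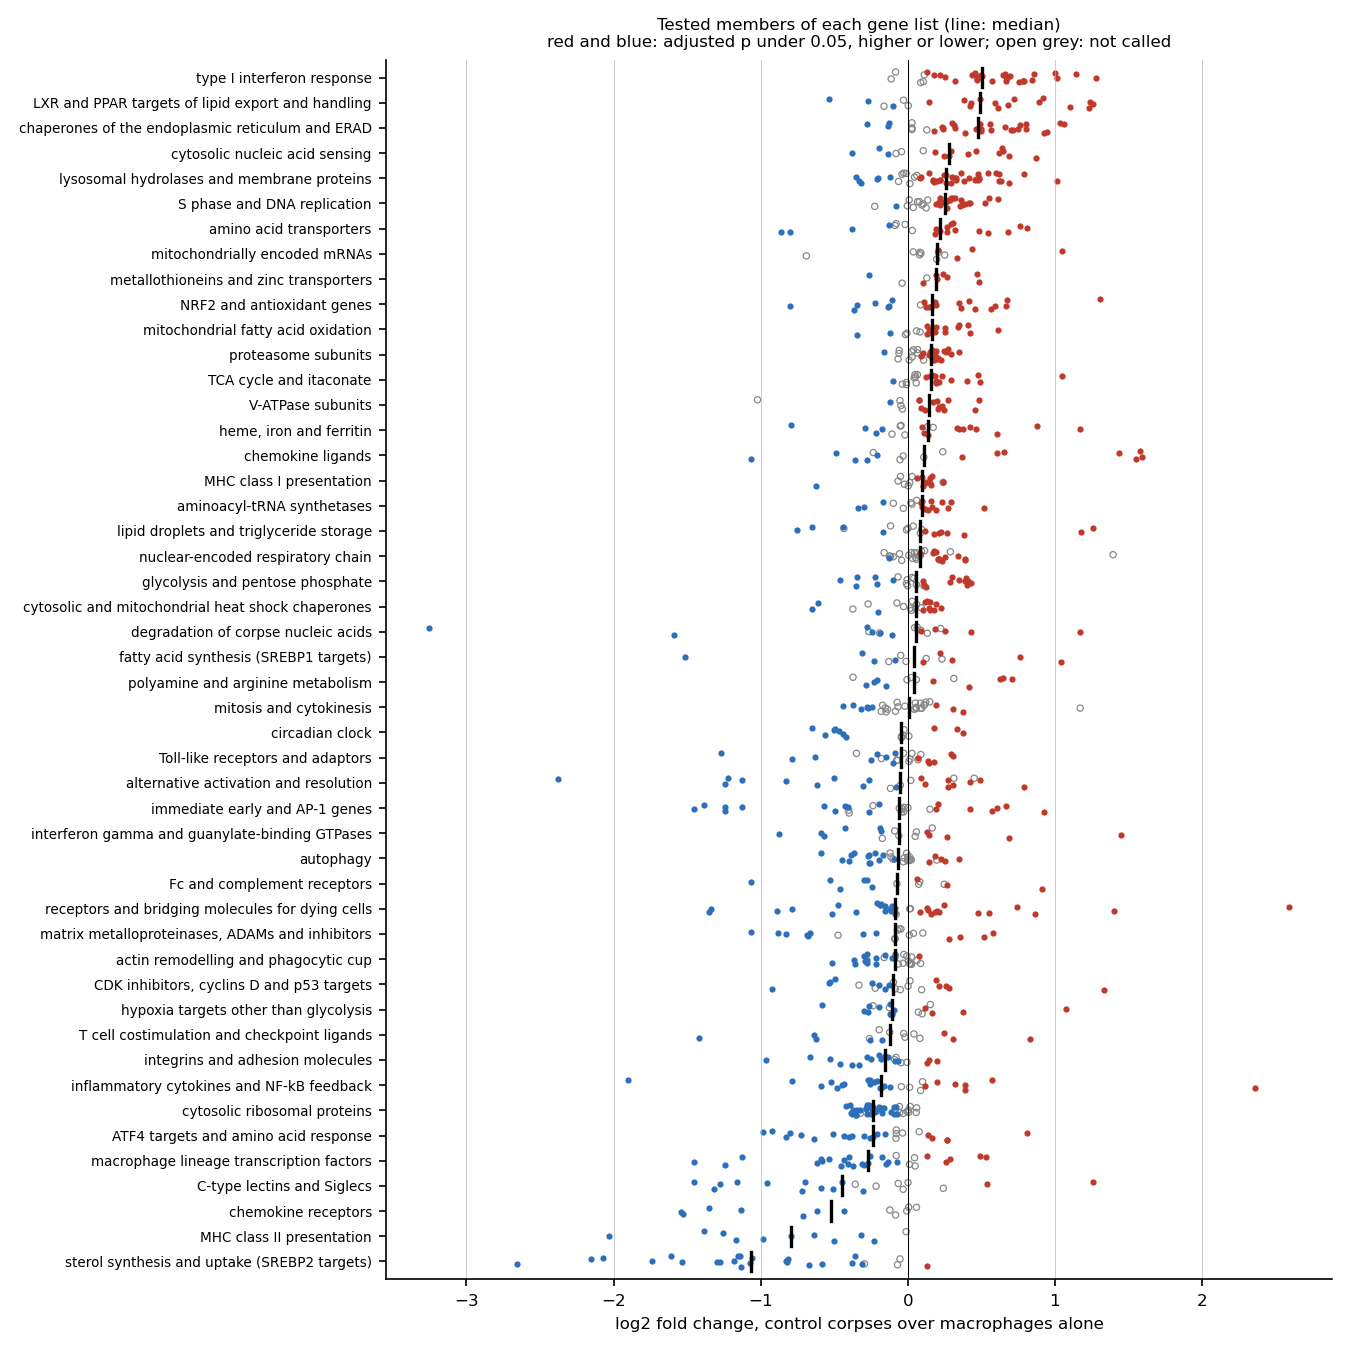
Each row is a gene list and each point a tested member at its log2 fold change, control corpses over macrophages alone; red and blue points were called higher or lower, open grey points were not called, and the black line is the median. Lists of cell type markers are not shown. Among the lists shown, medians run from −1.07 for sterol synthesis and uptake to 0.50 for the type I interferon response.

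Most tested markers of neutrophils fell, and most tested markers of dendritic, B, T and NK cells and fibroblasts were not called. Of 19 neutrophil markers 11 were tested, 8 fell and none rose. The summed level of all 19 was 252.0 to 259.8 CPM alone and at most 166.9 CPM with corpses, where its mean was 159.6 CPM. Members with a mean below 1 CPM in macrophages alone, 11 of the 19, summed to only 2.73 to 3.71 CPM there and 1.65 to 2.07 CPM with corpses. Nearly all of the sum thus lay in the other members. S100a9, a calcium-binding protein of granulocytes and monocytes (chromosome 3, 90692632 to 90695721), fell from 3.70, 4.22, 4.77 and 3.99 CPM to 0.299, 0.550, 0.701 and 0.503 CPM, and Ngp, a granule protein gene, from 4.59, 4.70, 4.39 and 4.44 CPM to 0.647, 0.886, 0.701 and 0.267 CPM. The defining neutrophil gene Ly6g had 0 counts in all 8 libraries. Ighm, the heavy chain gene of IgM, fell from 12.5 ± 0.824 to 2.55 ± 0.418 CPM, while the other 10 B cell markers together with it summed to 14.7 to 15.9 CPM alone and 4.68 to 5.50 CPM with corpses. Of 11 dendritic cell markers 5 were tested and 2 fell, one of them the transcription factor gene Batf3, whose groups overlapped (5.55 ± 0.601 against 4.06 ± 0.763 CPM). T and NK cell markers summed to 5.51 to 6.84 CPM alone and 5.77 to 6.75 CPM with corpses, neither of the 2 tested was called, and Cd3e, Cd8b1, Ncr1, Gzma and Gzmb had 0 counts. Of 12 tested fibroblast markers 4 fell, Sparc rose from 2.18 ± 0.350 to 3.45 ± 0.362 CPM, and the sum was 45.1 to 57.6 CPM alone and 40.5 to 48.0 CPM with corpses. Fewer cells of a type and less RNA per cell cannot be told apart in bulk RNA, and the part of such cells in the falls above was not tested.

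A direct test asked where macrophages with STC1OE corpses departed from those with control corpses. It called 893 genes, 5.44% of those tested, and the number depended on single libraries: against 3.33% of tested genes higher and 2.12% lower with all libraries, 1.71% and 1.18% were so without library 3 of the STC1OE group, 2.07% and 0.89% without its library 4, and 1.99% and 1.24% without library 3 of the control corpses. Without library 1 of the control corpses 1.13% were lower. Against control corpses, Dct was at 0.8286 instead of 3.07 CPM on average (log2 fold change −1.89 ± 0.20, edgeR adjusted p = 3.65e-07) and Pmel at 1.40 instead of 2.43 CPM (−0.79, edgeR adjusted p = 0.00437). Several genes that rose with control corpses were higher again with STC1OE corpses, such as Cdkn1c at 11.7 against 8.04 CPM (edgeR adjusted p = 1.9e-05), Hmox1 at 1528 against 1230 CPM (edgeR adjusted p = 4.22e-09) and Gsta3 at 12.7 against 9.29 CPM (edgeR adjusted p = 0.00176). Il18bp and Abca1 were not called in the direct test (edgeR adjusted p = 0.641 and 0.418).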

How the data were processed

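The authors deposited 1 table of raw read counts per gene for each of 12 libraries of bulk RNA. HISAT2, HTSeq and DESeq2 and the builds GRCm38 and mm10 are named in the submitters' processing notes, without versions. No label or header gives the strand setting or annotation release, so reads of overlapping or antisense genes cannot be told apart. Lines for reads outside genes were left out of library sizes.

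Counts were tested with edgeR 4.0.16 in R 4.3.3: genes were kept by filterByExpr (minimum count 10, total 15), scaled by TMM and fitted with robust quasi-likelihood over all 12 libraries and 3 groups, and p-values were adjusted by Benjamini-Hochberg over the 16406 genes tested at a threshold of 0.05. Standard errors are the log2 fold change over the square root of F. CPM use TMM-scaled library sizes. The script was tested on simulated data. Positions are from GENCODE (GRCm38) and promoters from RefSeq (GRCm38.p6).

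Members and gene lists were chosen with earlier results of these data known. Named genes are the 15 highest and lowest protein-coding fold changes with at least 2 CPM in the higher group and no overlap, the 10 largest CPM gains and losses, up to 5 called and 2 uncalled members per list, the 5 smallest p-values per direction, and the 8 most abundant risers under 0.25 CPM alone. Adgre1, Atf6, Bst2, Canx, Cgas, Creld2, Csf1r, Derl3, Dnajc3, Ern1, Hmgcs1, Hsp90b1, Hspa5, Ifit1, Insig1, Isg15, Mcoln1, Mfge8, Nr1h3, Pparg, Srebf2, Stab2, Syvn1, Tmem173 and Tyr are outside this rule and were picked with their values known, after the values were seen. Alternatives were other size factors, no filter, DESeq2 1.42.0, fitting 2 groups, a replicate block, a term for libraries 1 and 2 against 3 and 4, each of these pairs alone, a test against 1.2-fold, and leaving out each library. Results for some genes are not reported here.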

Additional observations from a re-analysis of the deposited data

Results flagged for a closer look

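In 342 sets of 4 libraries (171 named genes in both groups), 25 single libraries lay apart from the other 3 by Dixon's criterion. Chance flags about 1 in 20 such sets. Library 1 with control corpses was the highest of its group for Ccl4 at 27.8 CPM. Library 1 with control corpses was the lowest of its group for Acod1 at 3.26 CPM, Btg2 at 9.6 CPM, Gsr at 114.3 CPM and Lipe at 6.34 CPM. Library 2 with control corpses was the highest of its group for Tfrc at 315.3 CPM. Library 2 with control corpses was the lowest of its group for Clec4a2 at 34.0 CPM, Dcstamp at 10.2 CPM and Pparg at 40.4 CPM. Library 3 with control corpses was the highest of its group for Slc7a11 at 20.1 CPM and Srebf2 at 102.2 CPM. Library 3 with control corpses was the lowest of its group for Tyrp1 at 3.14 CPM. Library 4 with control corpses was the highest of its group for C1qb at 993.4 CPM and Tmem97 at 21.7 CPM. Library 1 of macrophages alone was the highest of its group for Cd36 at 2619 CPM, Ctsb at 11830 CPM, Stard4 at 39.5 CPM and Tlr4 at 100.3 CPM. Library 1 of macrophages alone was the lowest of its group for C1qb at 937.5 CPM, Cd300lf at 4.46 CPM, Cxcl14 at 0.622 CPM, Siglec1 at 104.5 CPM and Tfeb at 74.9 CPM. Library 4 of macrophages alone was the highest of its group for Wars at 38.7 CPM. Library 4 of macrophages alone was the lowest of its group for Cyc1 at 60.4 CPM.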

How the results depend on the processing

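The numbers of genes higher and lower with control corpses stayed within 1.5 times under other size factors, no filter, DESeq2, a fit of 2 groups and the pair term. Using only libraries 1 and 2 of each group gave 1997 higher and 2093 lower, and testing against 1.2-fold gave 736 and 951. Leaving out 1 library gave 2932 to 3301 higher and 2878 to 3179 lower. A replicate block gave 3289 higher and 3423 lower. Same-numbered libraries correlated at 0.318, −0.111, 0.0229 and 0.155. Library 1 with control corpses correlated at 0.318 and 0.203 with libraries 1 and 2 alone, and at −0.242 and −0.329 with 3 and 4. The chi-square per degree of freedom in macrophages alone was 3.12 between libraries 1 and 2, 2.88 between 3 and 4, and 6.00 to 13.46 otherwise. With control corpses it was 7.03, 2.73 and 5.46 to 9.11. Whether a batch joins libraries 1 and 2 or 3 and 4 was not tested. Between STC1OE and control corpses, only libraries 1 and 2 gave 0.165% of tested genes higher and 0.0366% lower, only libraries 3 and 4 gave 7.91% and 3.82%, the test against 1.2-fold gave 0.0122% in each direction, and leaving out 1 library gave 1.71% to 4.43% higher and 0.89% to 2.88% lower. The difference in the share of the 100 most abundant genes was 0.471 to 0.82 percentage points with 1 library left out, each at an exact permutation p of 0.0571, the smallest that 3 against 4 allows. With 1 library left out, Pld4 was the 1 named gene whose call between control corpses and macrophages alone changed. It also lost its call without the filter (adjusted p = 0.0853), with the replicate block (0.0886) and with the pair term (0.0545), and Oas2 gained one without the filter (0.0285). The calls of Batf3, Cmpk2, Ern1, Gas6, Ifit1, Ifit3, Irf7, Il1rn, Mertk, Pld4 and Zbp1 were lost in 1 or both pairs of libraries, where fewer samples were tested.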

Other observations

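Counts for further gene groups follow, beside 24.3% higher and 24.4% lower among protein-coding genes. Of 21 tested matrix metalloproteinases, ADAMs and inhibitors, which cut matrix and shed surface proteins, 8 fell (38.1%), 6 of them by at least 1.5-fold, and 4 rose (19.0%). Of 15 tested circadian clock genes 7 fell (46.7%) and 3 rose (20.0%), with a median log2 fold change of −0.04. Of 21 tested CDK inhibitors, D cyclins and p53 targets 8 fell (38.1%) and 5 rose (23.8%), with a median of −0.10. All 8 tested osteoclast markers were called, 5 lower and 3 higher, and their summed level was 850.3 to 868.6 CPM in macrophages alone and 805.5 to 836.1 CPM with control corpses. Mast cell, basophil and eosinophil markers summed to 5.56 to 7.69 CPM and 4.29 to 5.44 CPM, and Mcpt4, Mcpt8 and Tpsb2 had 0 counts. Erythroid and megakaryocyte markers summed to 132.1 to 139.6 CPM and 112.3 to 126.9 CPM, with 2 of 4 tested members lower and 0 counts for the globin gene Hbb-bs. Members with a mean below 1 CPM in macrophages alone, 11 of the 13, held only 2.04 to 2.485 CPM and 1.27 to 1.71 CPM of these sums.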
